A study of Rattus norvegicus with 11 samples.

Results

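The genes that fuse and divide mitochondria were examined in isolated ventricular myocytes of male and female rats. They were taken as the rows of the deposited table whose symbol is Mfn1, Mfn2, Opa1, Dnm1l, Fis1 or Mff, which is 6 of 17257 genes. Of these 6, 5 had a mean above 0, among 13346 such genes in all, and Mff was listed at 0 in both sexes. The libraries came from 6 male and 5 female wild-type Sprague Dawley rats aged 3 to 4 months, each a biological replicate by the series design. Contractile cells were released from the ventricles on a Langendorff apparatus, kept on dishes for 45 minutes without treatment and flash frozen. The comparison asks which genes of these cells are expressed at different levels in the 2 sexes.

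Mitochondria form a network that is remodelled by large GTPases of the dynamin superfamily. Mfn1 and Mfn2, the mitofusins, join the outer membranes of neighbouring mitochondria, and Opa1 then joins the inner membranes and shapes the cristae. Fission needs the cytosolic GTPase Dnm1l, also known as Drp1, which is gathered on the outer membrane by receptors such as Mff and constricts the organelle, while Fis1 is a small outer membrane protein tied to division and to the removal of damaged mitochondria. In the adult ventricular myocyte mitochondria lie packed between the myofibrils, and Mfn2 has also been described as a tether to the sarcoplasmic reticulum.

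Between the sexes 4 of the 5 measured genes passed the threshold of 0.05 on the adjusted p in the authors' deposited table, 2 of them higher and 2 lower in females. Mfn2 and Fis1 rose, and Mfn1 and Dnm1l fell. Each side of the process had a called gene in each direction. Over all 13346 genes the share called was 14.5%, with 6.71% higher and 7.76% lower in females. Among the 678 genes whose means lie in the range of the 5 measured members, from 3983 to 10403, the share was 27.9%, with 13.3% higher and 14.6% lower. The 6 genes were chosen by name with earlier results of these data known, so no test of the group was made. With Holm's stricter adjustment of the same DESeq p-values 0 of the 5 genes passed, although all 5 had an unadjusted p under 0.05. The median log2 fold change (female over male) was -0.32 over the 5 genes and -0.01 over all genes, and with values on both sides of 0 the former does not describe a common shift.

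**Figure D1:**
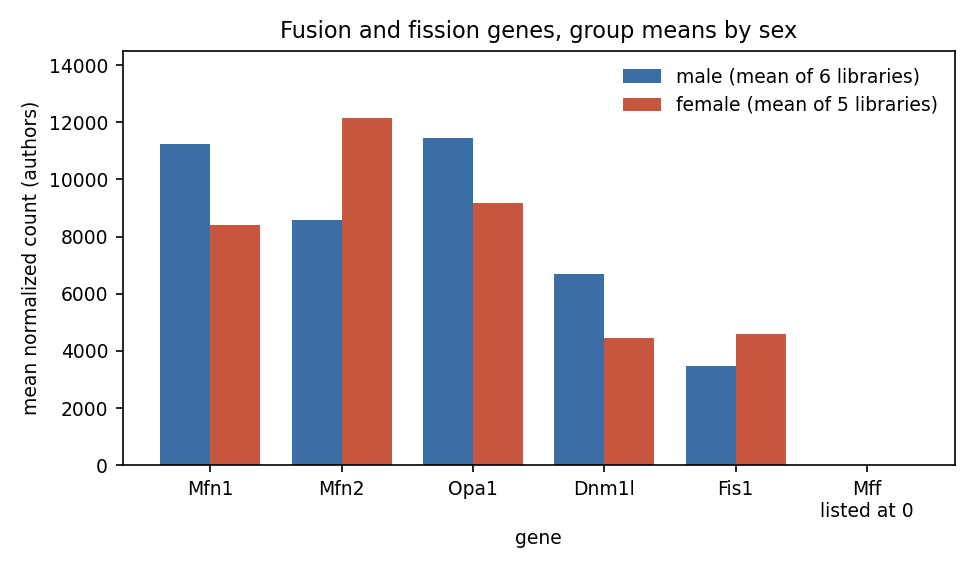
Bars give the authors' mean normalized count (vertical axis, linear from 0) of each fusion and fission gene in males (blue, mean of 6 libraries) and females (red, mean of 5 libraries), with no error bars because the table holds no value per library. The female bar is the taller for Mfn2 and Fis1 and the shorter for Mfn1, Opa1 and Dnm1l, and Mff is listed at 0.

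The deposited values are means of normalized counts in each sex, as made by the authors, that is, gene counts divided by a size factor per library and averaged. No value per library was used, so group means carry no SD. Their sums were 62791446 in males and 56624597 in females over all rows. Over rows with a gene symbol the sums were 26708923 and 27889222. The 5 measured members were deeply counted, with counting errors of their group means between 0.382% and 0.693%, so depth adds little to their uncertainty. The spread between animals enters through the authors' p-values alone, as DESeq estimated it with settings that are not given. A standard error was read back from each p-value and its fold change under a normal approximation. It is not a spread observed between animals for that gene. Those of the 5 genes, from 0.13 to 0.14, lay close to the median of 0.14 over the 678 genes in their range of means. Values are compared between the sexes within a gene, and levels are not ranked between genes, since no transcript length was used.

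The start site windows of Mfn1, Opa1, Dnm1l and Fis1 are shown because these genes serve a common process and yet were not called in a common direction. RefSeq windows of 300 bases, from 250 before to 50 after a start site, were matched by symbol for these 4 genes and Mff, 5 of the 6 genes, in the assembly GRCr8, and Mfn2 was not matched. The windows are written 5′ to 3′ along the gene, with matches to any of 5 short motifs on either strand in capitals. Fis1 has 2 windows there. The motifs were CCGGAAG (ETS factors, the family of Gabpa), CATGCGC (a part of the NRF1 site), AAGGTCA (estrogen-related receptors), GGGCGG (the GC box) and CCAAT.
Mfn1, chr2:117241508-117241807, plus strand: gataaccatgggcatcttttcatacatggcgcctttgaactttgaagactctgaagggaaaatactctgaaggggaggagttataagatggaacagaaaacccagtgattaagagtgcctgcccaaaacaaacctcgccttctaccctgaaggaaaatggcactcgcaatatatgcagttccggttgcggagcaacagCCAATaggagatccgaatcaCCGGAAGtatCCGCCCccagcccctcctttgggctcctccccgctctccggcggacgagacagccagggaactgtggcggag
Opa1, chr11:84689851-84690150, minus strand: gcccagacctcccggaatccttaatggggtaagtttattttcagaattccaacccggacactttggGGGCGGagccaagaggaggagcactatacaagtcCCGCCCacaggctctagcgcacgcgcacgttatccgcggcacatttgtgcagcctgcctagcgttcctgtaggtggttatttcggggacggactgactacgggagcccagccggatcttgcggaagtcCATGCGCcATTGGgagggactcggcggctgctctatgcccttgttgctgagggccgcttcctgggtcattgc
Dnm1l, chr11:98085147-98085446, plus strand: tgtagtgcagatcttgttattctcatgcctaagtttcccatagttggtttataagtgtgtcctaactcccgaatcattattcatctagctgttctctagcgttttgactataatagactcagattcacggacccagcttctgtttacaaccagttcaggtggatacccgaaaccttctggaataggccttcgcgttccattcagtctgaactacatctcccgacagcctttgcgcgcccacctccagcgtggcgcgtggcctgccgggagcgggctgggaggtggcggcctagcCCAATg
Fis1, chr12:25349283-25349582, minus strand: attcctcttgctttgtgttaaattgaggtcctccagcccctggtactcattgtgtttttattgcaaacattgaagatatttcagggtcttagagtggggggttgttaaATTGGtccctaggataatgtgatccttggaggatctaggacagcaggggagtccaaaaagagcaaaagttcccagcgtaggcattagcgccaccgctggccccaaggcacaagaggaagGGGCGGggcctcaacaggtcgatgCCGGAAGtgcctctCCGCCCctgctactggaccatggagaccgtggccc
Fis1, chr12:25359994-25360293, minus strand: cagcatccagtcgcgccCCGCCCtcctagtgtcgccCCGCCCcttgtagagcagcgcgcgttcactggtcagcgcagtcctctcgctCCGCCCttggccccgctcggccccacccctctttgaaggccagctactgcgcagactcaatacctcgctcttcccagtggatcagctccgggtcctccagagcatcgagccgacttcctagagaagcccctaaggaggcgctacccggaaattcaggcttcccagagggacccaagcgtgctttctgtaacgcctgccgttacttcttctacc
Matches to CCAAT were present in at least 1 window of each of the 4 genes, at -52 in Mfn1, -14 in Opa1, 44 in Dnm1l and -142 at the downstream site of Fis1, counted from the start site, and in 37.5% of all windows. The other motifs were not shared by all 4. CCGGAAG was found in the windows of Mfn1, at -32 from the start site, and of Fis1 at the downstream site, against 8.75% of 33469 RefSeq windows of this length. Opa1 alone among the printed windows held the NRF1 letters, at -22 from its start site, and 3.77% of all windows hold it. A GC box was present in the windows of Mfn1 and Opa1 and in both of Fis1, and in 33.1% of all windows, whereas the Dnm1l window held none of the other motifs. AAGGTCA was absent from the printed windows and is found in 4.61% of all. These matches describe letters and are not evidence of binding.

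Mfn2 was higher in females. Its mean was 8587 normalized counts in males and 12152 in females in the authors' deposited table, a fold of 1.42. The log2 fold change was 0.50, the implied standard error 0.14 and the adjusted p 0.0061 in the authors' deposited table. The implied 95% interval of the fold ran from 1.17 to 1.70. Of the 678 genes in the members' range of means, 7.82% had a larger log2 fold change towards females. By size, 82.0% of them changed less in either direction.

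Its paralog Mfn1 went the other way. The authors' deposited table gives a mean of 11250 normalized counts in males and 8396 in females, a female over male fold of 0.746. On the log2 scale the change was -0.42 with an implied standard error of 0.13, and the adjusted p in the authors' deposited table was 0.0175. The implied interval of the fold ran from 0.624 to 0.893. Of the 678 genes in the members' range of means, 14.7% had a lower log2 fold change and 74.3% changed less in either direction.

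The ratio of the mitofusin means differed between the sexes while the sum of their normalized counts was nearly level. In males the Mfn2 mean was 0.763 times that of Mfn1, and in females it was 1.45 times, so that this ratio was 1.90 times as high in females, a quantity in which transcript length cancels. The sum of both means was 19837 normalized counts in males and 20549 in females, a fold of 1.04. Transcript length does not cancel in this sum, so it does not show whether the total of mitofusin transcripts was level. The change in the ratio itself was not tested, since that needs values per library.

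Opa1, the inner membrane fusion GTPase, did not pass the threshold. Its means in the authors' deposited table were 11434 normalized counts in males and 9165 in females. The log2 fold change was -0.32, the p-value 0.0134 and the adjusted p 0.0758 in the authors' deposited table. The implied 95% interval of the fold, from 0.673 to 0.955, is that of a single gene without adjustment. Among the 678 genes in the members' range of means the smallest change called was 0.36 on the log2 scale, in either direction, which is larger than that of Opa1. Changes of up to 1.54 were left uncalled among them, so size alone did not set the calls. Of the 678 genes, 21.5% had a lower log2 fold change than Opa1 and 60.8% changed less in either direction. Set against each mitofusin, the Opa1 ratio to Mfn1 was 1.02 in males and 1.09 in females, and its ratio to Mfn2 was 1.33 and 0.754.

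Dnm1l, the GTPase that divides mitochondria, had the smallest p-value of the 5. In the authors' deposited table it fell from a mean of 6704 normalized counts in males to 4469 in females, a fold of 0.667. Its log2 change of -0.59 had an implied standard error of 0.13, and its adjusted p in the authors' deposited table was 0.00096. The implied interval of the fold ran from 0.556 to 0.799. Of the 678 genes in the members' range of means, 6.34% had a lower log2 fold change and 88.1% changed less in either direction.

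Fis1, the outer membrane adaptor, rose where Dnm1l fell. Means of 3466 normalized counts in males and 4602 in females stand in the authors' deposited table, a fold of 1.33 with an implied 95% interval from 1.11 to 1.58. The log2 fold change was 0.41, the implied standard error 0.13 and the adjusted p 0.0187 in the authors' deposited table. Of the 678 genes in the members' range of means, 11.5% had a higher log2 fold change and 72.3% changed less in either direction. The ratio of Fis1 to Dnm1l was 0.517 in males and 1.03 in females, which is 1.99 times as high in females. As for the mitofusins, that ratio was not tested as such.

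**Figure D2:**
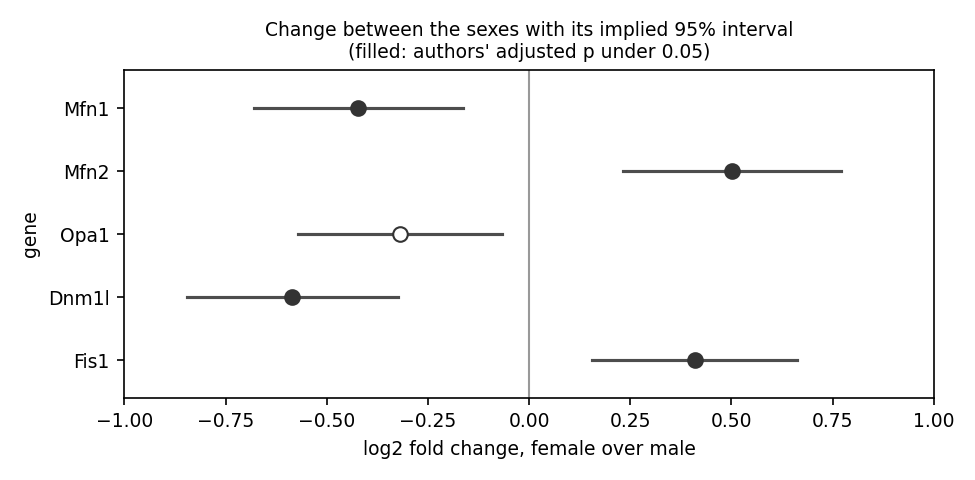
Points give the log2 fold change (horizontal axis, female over male) of the 5 measured fusion and fission genes, and lines the 95% interval implied by the authors' p-value before adjustment. Filled points passed the threshold of 0.05 on the adjusted p, with Mfn2 (0.50) and Fis1 (0.41) to the right of 0, Mfn1 (-0.42) and Dnm1l (-0.59) to the left, and Opa1 (-0.32) unfilled.

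Mff, the main outer membrane receptor for Dnm1l, gave no information. Its row was listed at 0 in both sexes of the authors' deposited table, 1 of 3911 such rows. A row at or near 0 in this table does not show that a gene is silent. Tpi1, a glycolytic enzyme that every cell uses, had means of 4.68 and 4.54 normalized counts in the authors' deposited table, and Col1a2 was listed at 0 where its partner chain Col1a1 had 708 in males. Both were picked after their values were seen. No fold is given for Mff.

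**Figure D3:**
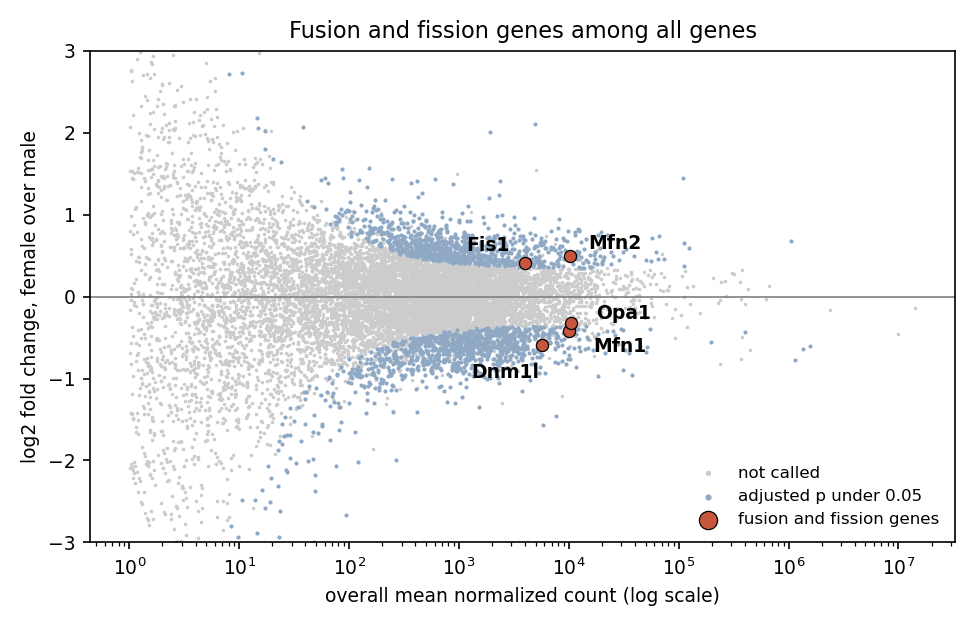
The log2 fold change (vertical axis, female over male) is plotted against the overall mean normalized count (horizontal axis, log scale) for 11894 genes whose mean is 1 or more and whose change lies within 3 of 0, leaving out 1452 measured genes, with genes called at an adjusted p under 0.05 in blue. The 5 fusion and fission genes (red) lie among the well counted genes, with Opa1 at the inner edge of the called genes and Mfn1 close below it.

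Genes that act beside the members were taken from 10 lists, which held 86 genes, of which 79 had a row and were measured. Of these 79, 5 were called higher and 22 lower in females, beside 6.71% higher and 7.76% lower over all genes and 13.3% and 14.6% over genes with means in the range of the members. The median log2 fold change over the 79 was -0.05. Taken one by one, the lists differed in their makeup.

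Among fusion partners and regulators, 1 of 8 measured genes was called higher and 2 lower, beside 6.71% and 7.76% over all genes. The median log2 change was 0.23. Fam73b, the older symbol of Miga2, whose product promotes outer membrane fusion, rose 1.53-fold with adjusted p = 0.0011 in the authors' deposited table. Slc25a46, an outer membrane relative of the mitochondrial carriers that is linked to fusion and fission, fell by 0.87 log2 units in the authors' deposited table. The ubiquitin ligase gene March5, whose product acts on mitofusins and on Dnm1l, fell by 0.62 there, and adjusted p was 0.0106 and 0.0078 for these 2 genes. The outer membrane ligase Mul1 and the gene Opa3, the most highly counted of this list, had log2 changes of 0.29 and 0.33 and adjusted p was 0.161 and 0.0831 in the authors' deposited table.

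The proteases and scaffolds around Opa1 showed 1 call among 9 measured genes, beside 14.5% called over all genes. Chchd10, a small protein of the intermembrane space, rose from 26763 to 40081 normalized counts, with adjusted p = 0.0026 in the authors' deposited table. None of the other 8 measured genes passed the threshold. Oma1, the stress-activated protease that cleaves Opa1, had a log2 change of -0.06 and the prohibitin gene Phb one of 0.26, and adjusted p was 0.930 and 0.170 in the authors' deposited table. Oma1 was picked for its role after its value was seen. Yme1l1, the other main Opa1 protease, was likewise picked after its value was seen. It had means of only 2.17 and 3.38 normalized counts in the authors' deposited table and was not read further.

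No other gene on the fission list was called. Of 7 measured genes, 4 had a log2 fold change below 0 and 3 above, from -0.34 to 0.36. Mtfr1l, a regulator of fission, had means of 10356 and 9997 normalized counts and Bcl2l1, which encodes Bcl-xL, 1268 and 1443, and adjusted p was 0.908 and 0.657 in the authors' deposited table. Mief1, which like Mff recruits Dnm1l, had a log2 change of 0.36 and adjusted p = 0.1004 in the authors' deposited table and was picked for that role after its value was seen. The classical dynamins, relatives of Dnm1l that cut endocytic vesicles, had 3 log2 fold changes above 0, from 0.28 to 0.65, and no call. The 0.65 was that of Dnm1, named here for its size, on means of only 37.6 and 59.2 normalized counts in the authors' deposited table. Dnm2 had means of 2712 and 3535 normalized counts with adjusted p = 0.0518, and Dnm3 had 92.8 and 113 with 0.615 in the authors' deposited table.

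Of 14 measured genes whose products modify Dnm1l, 6 were called lower and none higher in females, beside 7.76% lower and 6.71% higher over all genes. The list median was -0.05, and the 8 genes not called had log2 changes from -0.11 to 1.34. The 1.34 was that of Ppp2r2b, named here for its size, on means of only 7.18 and 18.2 normalized counts in the authors' deposited table. Calcineurin, the calcium-dependent phosphatase that frees Dnm1l to move to mitochondria, was represented by Ppp3ca, Ppp3cb and Ppp3r1. These 3 genes, the only ones of calcineurin in the list, fell, with log2 changes of -0.62, -0.39 and -0.62. Their adjusted p was 0.0211, 0.0499 and 0.0119 in the authors' deposited table. The kinase gene Rock1 (-0.71) and the mitotic kinase gene Cdk1 (-1.97) also fell, as log2 changes in the authors' deposited table. Cdk1 rested on means of 43.39 and 11.04 normalized counts. Prkaca, the catalytic subunit of protein kinase A, which restrains Dnm1l, had a log2 change of 0.08, and its mitochondrial anchor Akap1 one of -0.11, and adjusted p was 0.808 and 0.683 in the authors' deposited table.

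The cristae organising system is a complex that holds cristae junctions open and works beside Opa1. Its list, which holds subunits and outer membrane partners, also held genes that fell. Of the 9 measured genes of this list 5 were called lower and none higher in females, where 7.76% of all genes were called lower and 6.71% higher. The list median was -0.51 on the log2 scale. The called genes were the subunits Chchd3 (-0.51), Minos1 (-0.62), Apoo (-0.56) and Apool (-0.72) and the outer membrane partner Mtx2 (-0.65), as log2 changes in the authors' deposited table. Their adjusted p-values ran from 0.0014 for Minos1 to 0.0258 for Chchd3 in the authors' deposited table. Immt, the core subunit, had means of 15286 and 13302 normalized counts and adjusted p = 0.324 in the authors' deposited table. The fall was not shared by the whole list, since 6 genes had a log2 change below 0 and 3 above. Those 3, named here for their direction, were the outer membrane partners Mtx1 (0.40) and Samm50 (0.30) and the subunit Chchd6 (0.25), and none was called. Chchd6 had means of 118 and 140 normalized counts in the authors' deposited table.

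Transport genes held another pair of paralogs called in opposite directions. Of the 5 measured genes in this list 1 was called higher and 2 lower in females, beside 6.71% and 7.76% over all genes. Rhot1 and Rhot2 encode the Miro GTPases, which tie mitochondria to motor proteins and meet the mitofusins on the outer membrane. In the authors' deposited table Rhot1 had means of 4435 normalized counts in males and 3369 in females, a log2 change of -0.40 with adjusted p = 0.0332. Rhot2 had 1788 and 2408, a log2 change of 0.43 with adjusted p = 0.0267 in the authors' deposited table. The ratio of Rhot2 to Rhot1 was 0.403 in males and 0.715 in females, and was not tested as such. Kif5b, the kinesin heavy chain that drives mitochondria along microtubules, fell by 0.96 log2 units with adjusted p = 0.0076 in the authors' deposited table, and the adaptor gene Trak1 had a log2 change of 0.31 and adjusted p = 0.107 there.

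**Figure D4:**
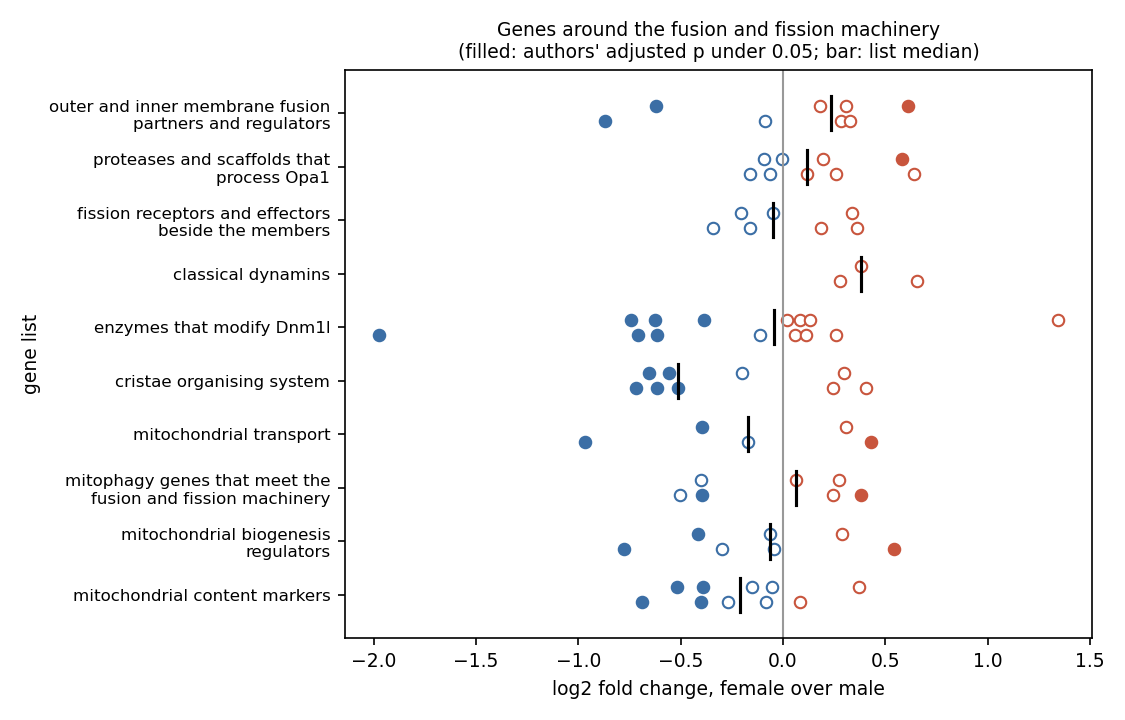
Each circle is the log2 fold change (horizontal axis, female over male) of 1 measured gene in 1 of 10 lists (vertical axis), red above 0 and blue below, filled where the adjusted p was under 0.05, with a black bar at the list median. Filled circles lie on the left alone in the cristae list (5 genes), the list of enzymes that modify Dnm1l (6 genes) and the content markers (4 genes), and on both sides in 4 lists.

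In the mitophagy list, whose genes lead to the removal of mitochondria, 1 of 7 measured genes was called higher and 1 lower. Over all genes the shares were 6.71% higher and 7.76% lower. Fkbp8, an outer membrane receptor, had a log2 change of 0.38 and Bnip3, a receptor induced by low oxygen, one of -0.39, and adjusted p was 0.0408 and 0.0385 in the authors' deposited table. Pink1, the kinase that marks mitofusins on damaged mitochondria, had means of 20649 and 24974 normalized counts and adjusted p = 0.1402 in the authors' deposited table. Of 7 regulators of mitochondrial biogenesis, 1 was called higher and 2 lower, beside the same shares over all genes. The coactivator gene Ppargc1b rose 1.46-fold in the authors' deposited table, with adjusted p = 0.0107. Gabpa, an ETS factor (log2 change -0.78), and Tfam, which packages and transcribes mitochondrial DNA (-0.42), fell, and adjusted p was 0.0050 and 0.0421 in the authors' deposited table. For Ppargc1a the authors' deposited table gives a log2 change of -0.30 and adjusted p = 0.206.

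A list of markers of mitochondrial content was used as a reference for the members. Whether its median follows the content of mitochondria was not tested. Of 10 measured genes none was called higher and 4 were called lower in females, against shares of 6.71% and 7.76% over all genes. The median log2 change was -0.21, with 8 genes below 0 and 2 above. The import subunits Tomm20 (-0.69) and Timm23 (-0.40), the chaperone gene Hspd1 (-0.52) and the electron transfer gene Etfa (-0.39) were the 4 called, as log2 changes in the authors' deposited table. The 2 above 0, named here for their direction, were Cs (0.09) and Tomm40 (0.37), and neither was called. The most highly counted, the carrier gene Slc25a4 and the channel gene Vdac1, had log2 changes of -0.08 and -0.05 and adjusted p was 0.781 and 0.860 in the authors' deposited table. Measured from the list median, the log2 differences were 0.71 for Mfn2, 0.62 for Fis1, -0.21 for Mfn1, -0.37 for Dnm1l and -0.11 for Opa1. The 4 called members kept their direction, which a median smaller in size than each of their changes could not reverse. Mfn1 moved from -0.42 to -0.21, by more than its implied standard error of 0.13. The recentred differences were not tested.

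Markers of the labelled cell type were present, and so were markers of other cells. Among the latter Pecam1 had means of 4889 and 4902 normalized counts, Cdh5 4066 and 3961, and Dcn 5594 and 3902 in the authors' deposited table, males first. The 6 myocyte markers had summed means of 2237074 normalized counts in males and 2812001 in females, with Myh6 and Ryr2 called higher. Myh6 alone went from 831771 to 1330868, so the sum does not describe a shift common to the 6 markers. The other 4 were not called. On the log2 scale Tnnt2 stood at -0.03, Myl2 at 0.002, Tnni3 at 0.18 and Actn2 at 0.29. Summed means of the 4 measured fibroblast markers were 6719 and 4617, of the 5 endothelial markers 17366 and 16606, of the 5 leukocyte markers 903 and 736, and of the 5 smooth muscle and pericyte markers 5237 and 5338, males first. Col1a1 and Emcn were called lower in females among these, and Col1a2 was listed at 0. Dcn, which makes up most of the fibroblast sums, was not called. Of the 4 fibroblast markers 3 lay below 0 on the log2 scale and 1, Tcf21, above. The part of other cells in the results above was not tested. In such bulk libraries fewer cells of a type and less RNA per cell cannot be told apart.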

How the data were processed

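RNA from ventricular myocytes of 6 male and 5 female rats was measured. Per the labels' protocols, 650 ng of total RNA (integrity number 9 or more) went into stranded paired-end libraries after ribosomal RNA depletion. The submitters' processing notes name build rn6, the aligner TopHat2 2.0.12, the counter HTSeq 0.6.1, DESeq, Trimmomatic 0.32 and FastQC. Their settings, the annotation and the use of strand in counting are not given in the sources used here.

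Per the file headers, the authors deposited a signal, the mean of normalized counts, for all libraries together and for groups A and B. They also deposited the fold change as a ratio, its log2 value, a p-value and an adjusted p-value. Group A was read as male and B as female, since weights of 6 for A and 5 for B gave the overall mean in 13346 of 13346 genes (relative tolerance 1e-09) and exchanged weights in 0. The deposited adjusted p matched a Benjamini-Hochberg adjustment within 3.3e-15. The authors' DESeq p was the only test over libraries. Standard errors, 95% intervals, ratios, sums and other adjustments were computed in Python 3.11.15 with numpy 2.4.6, pandas 2.3.3 and scipy 1.17.1, and drawn with matplotlib 3.10.9. The adjustments were tested on simulated data. The simulated p-values came from a normal statistic, so only the arithmetic of the standard errors was checked. Whether the normal approximation holds for the authors' DESeq p-values was not tested.

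The members and lists were chosen with earlier results of these data known. Named genes were the 6 members and, in each list, every called gene and the 2 with the highest mean, with exceptions marked where they stand. A gene that this rule names is not reported here.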

Additional observations from a re-analysis of the deposited data

How the results depend on the processing

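The 4 calls among the fusion and fission genes stood when p-values were adjusted over genes with a mean of at least 10 or over all rows, with adjusted p-values for Mfn1, Mfn2, Dnm1l and Fis1 from 0.00076 to 0.0242. With Holm's stricter adjustment of the authors' DESeq p-values 0 were called, where 5 had an unadjusted p under 0.05. The Holm value was 0.152 for Dnm1l and 1 for Mfn1, Mfn2 and Fis1. At a threshold of 0.01 the count was 2 (Mfn2 and Dnm1l), and at 0.1 it was 5, with Opa1 added. Opa1 had adjusted p-values from 0.0602 to 1 over the other adjustments. All 5 genes kept their direction when recentred on genes with a mean of at least 50, on the content markers, or on equal sums of counts, the last 2 forms of which (all rows, or rows with a symbol) were chosen after seeing the data. The log2 shifts subtracted ran from -0.21 to 0.06, smaller in size than the smallest change (-0.32, Opa1), so no direction could reverse. Equal sums over all rows moved every log2 fold change by 0.15 towards females, to -0.27 for Mfn1 and -0.17 for Opa1. Across the lists 27 genes were called, 29 with the higher minimum mean and 31 at a threshold of 0.1.

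No paired analysis was possible because the deposited values are means over the libraries of each sex, and for the same reason leaving out single libraries was not run. Whether 1 animal carries any of these differences was not tested.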
